A study of Mus musculus with 7 samples.

Results

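The SLC25 family of mitochondrial carriers was examined on arrays labelled as cDC1 (type 1 conventional dendritic cells) sorted from spleen, a subset that cross-presents antigen to CD8 T cells. Members were the annotated rows of the array table whose symbol starts with Slc25a, together with the uncoupling proteins Ucp1, Ucp2 and Ucp3, with 1 probe set per symbol. This gave 48 of 19505 named genes, each measured by 1 probe set. Ucp2 was not analysed here, because no named probe set carried its symbol. The KO group (4 arrays, KO 1 to 4) came from CD11c-Cre; OPA1 flox mice, in which a Cre recombinase under the CD11c promoter acts on a floxed Opa1 gene. The WT group (3 arrays, WT 1 to 3) came from WT mice. All mice were C57BL/6 and carried B16-OVA tumors, a melanoma line that expresses ovalbumin. Cre can act in any cell that expresses CD11c, so other CD11c-positive cells of the host may also carry the deletion. Animal age, and whether each array came from a separate mouse, are not given in the sources used here, so a p-value here reflects the spread among arrays, which may be technical.

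SLC25 carriers are membrane proteins, nearly all of the inner mitochondrial membrane, that exchange nucleotides, phosphate, carboxylates, amino acids, cofactors and metals between the cytosol and the matrix. They are built from a repeated pair of transmembrane helices, and most work as exchangers or proton-coupled importers. Through them ATP leaves the matrix, citrate reaches the cytosol for lipid synthesis, and reducing equivalents pass inward. OPA1, the protein whose gene was targeted, fuses the inner membrane in which these carriers sit and shapes its cristae.

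Opa1 itself read 7.70, 7.10, 6.85 and 8.24 on the array log2 scale on the arrays labelled KO 1 to 4, against 8.14, 8.80 and 9.15 on those labelled WT 1 to 3. The groups overlapped, since KO 4 lay above WT 1, and the difference was -1.22 with a standard error of 0.363 (limma, adjusted p = 0.223; exact two-sided permutation p = 0.114, where the design allows no p below 0.0571). The positions of its probes relative to the deleted part were not analysed here, so groups are named as the arrays are labelled. Of 10 cDC1 markers, all 10 were measured, and their mean was 12.36 to 12.45 on the KO arrays and 11.43, 9.54 and 12.35 on WT 1, WT 2 and WT 3. Of 10 melanocyte lineage markers, all measured, the mean was 7.11 to 8.07 on the KO arrays and 11.65, 11.96 and 9.21 on WT 1 to 3, and for 9 of the 10 every KO array lay below every WT array. Clec9a, a receptor for dead cells on cDC1, read 12.03 to 12.11 on the KO arrays, against 10.46, 7.29 and 12.10 on WT 1 to 3, and Tyrp1, a melanin enzyme, read 7.05 to 8.99 in KO, against 13.02, 13.32 and 10.60 in WT. The list means of the other cell types were 7.97 to 8.22 in KO and 7.73 to 8.06 in WT for 5 measured erythroid genes, and 7.96 to 8.54 in KO and 8.59 to 10.05 in WT for 9 macrophage and monocyte genes. They were 7.73 to 8.14 in KO and 7.50 to 8.13 in WT for 5 B cell genes, 6.92 to 8.36 in KO and 7.01 to 8.49 in WT for 6 T and NK cell genes, and 7.55 to 8.17 in KO and 7.05 to 7.75 in WT for 7 neutrophil genes. The arrays labelled WT 1 and WT 2 thus stood apart in markers of cell type, and WT 3 lay within or close to the KO range except in the melanocyte and macrophage lists. Whether the RNA of WT 1 and WT 2 is that of cDC1, as labelled, is therefore in doubt, and every KO minus WT difference that uses these arrays carries that doubt. For this reason WT 3 is named apart from them in the results. WT 3 too exceeded every KO array in the means of the melanocyte list (9.21) and the macrophage and monocyte list (8.83). A difference against WT 3 alone is therefore not free of doubt about the cells either. In bulk RNA, fewer cells of a type and less RNA per cell cannot be told apart.

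Across the family the median difference (KO minus WT) was -0.01 log2, with 23 members higher and 25 lower in KO, and 29 of the 48 differed by under 0.2. The direction of that median turned with the scaling, to 0.05 after median centring of the arrays and to 0.01 after quantile normalization, where 30 and 25 members were higher, so the sign of a difference near 0 depends on the scaling. Centring turned the sign of 7 members (Slc25a5, Slc25a11, Slc25a17, Slc25a31, Slc25a35, Slc25a39 and Slc25a40) and quantile normalization that of 6 (Slc25a17, Slc25a27, Slc25a35, Slc25a39, Slc25a40 and Ucp3). Over all 19505 genes the median was 0.06, with 11690 higher and 7811 lower in KO (40.0% lower), and 10670 differed by under 0.2. Of the 48 members 0 passed an adjusted p of 0.05 in limma in either direction, and 0% of all genes did. At an unadjusted p under 0.05, 1 member was higher in KO and 5 were lower, beside 8.98% of all genes higher and 10.6% lower (19.6% either way). A further description without a test is whether the groups overlap. In 1 member every KO array lay above every WT array, beside 7.85% of all genes, and in 3 members every KO array lay below every WT array, beside 5.92% of all genes. Absolute differences had a median of 0.16 log2 among members and 0.18 among all genes. The median SD of a member was 0.14 over the KO arrays and 0.17 over the WT arrays. A signal above the median of the negative control probe sets on all 7 arrays was found for 39 members, on some arrays for 5, and on 0 arrays for 4, the last being Slc25a21, Slc25a31, Slc25a48 and Ucp3. Of all 19505 genes the same held for 13570, 2704 and 3231.

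**Figure D1:**
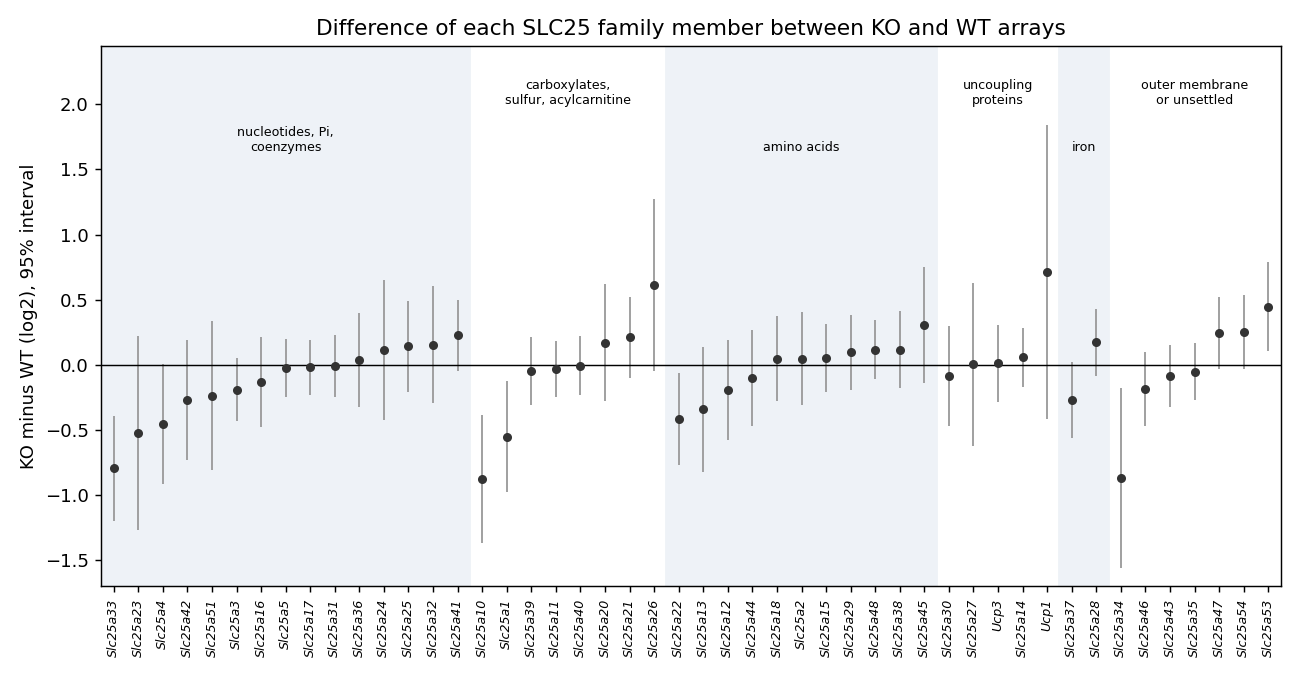
Difference of each of the 48 members between KO and WT arrays (vertical axis, log2 units, KO minus WT), grouped by the role assigned here (shaded bands). Points are the limma estimates and bars the 95% intervals without correction for many genes. Slc25a10 (-0.88), Slc25a34 (-0.87) and Slc25a33 (-0.80) lie lowest and Ucp1 (0.71) highest, and most members lie near 0.

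The members with the smallest p between groups were Slc25a33, Slc25a10 and Slc25a1, all lower in KO. The promoters of these genes are printed as a description, and no difference between groups depends on them. The sequences are those of RefSeq, build GRCm38.p6, given 5′ to 3′ in the direction of transcription, from 250 bases before to 50 bases after the annotated start. Capitals mark motifs found on either strand, namely the E-box CACGTG, the GC box GGGGCGGGG and the CCAAT box. The Slc25a33 window is chr4:149774218-149774517 on the minus strand, that of Slc25a10 chr11:120491587-120491886 on the plus strand, and that of Slc25a1 chr16:17928170-17928469 on the minus strand.
Slc25a33: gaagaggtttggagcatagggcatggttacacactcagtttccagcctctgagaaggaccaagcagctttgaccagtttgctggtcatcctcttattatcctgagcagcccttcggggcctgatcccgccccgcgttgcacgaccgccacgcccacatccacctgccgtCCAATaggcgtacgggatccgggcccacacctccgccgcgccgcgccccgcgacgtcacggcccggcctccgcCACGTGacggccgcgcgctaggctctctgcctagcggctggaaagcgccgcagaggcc
Slc25a10: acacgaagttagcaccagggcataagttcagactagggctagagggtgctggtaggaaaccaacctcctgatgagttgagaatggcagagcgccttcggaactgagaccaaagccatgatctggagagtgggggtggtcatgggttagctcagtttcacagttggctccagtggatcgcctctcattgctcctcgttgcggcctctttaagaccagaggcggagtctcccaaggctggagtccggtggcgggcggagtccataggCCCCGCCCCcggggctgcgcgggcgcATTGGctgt
Slc25a1: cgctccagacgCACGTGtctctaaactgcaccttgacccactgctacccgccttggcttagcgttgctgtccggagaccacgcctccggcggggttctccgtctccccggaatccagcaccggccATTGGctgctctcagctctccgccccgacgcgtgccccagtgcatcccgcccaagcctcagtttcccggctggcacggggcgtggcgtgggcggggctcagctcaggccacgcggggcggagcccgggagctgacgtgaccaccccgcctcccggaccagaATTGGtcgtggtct

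The Slc25a33 window held an E-box that began 8 bases before the start and a CCAAT box 81 bases before it. Slc25a1 held an E-box 239 bases before the start and CCAAT boxes on the opposite strand 125 bases before and 36 bases after it. Slc25a10 held a GC box and a CCAAT box, both on the opposite strand and after the start, and no E-box. No motifs overlapped each other in these windows. Of the 48 members 38 had at least 1 window in the table, 48 windows in all, since some genes have several annotated starts. The E-box was in 8 member windows (16.7%, 7 genes: Slc25a1, Slc25a13, Slc25a14, Slc25a15, Slc25a31, Slc25a33 and Slc25a36), beside 7.15% of all 32851 windows. The GC box was in 12.5% of member windows and 11.45% of all windows, and the CCAAT box in 45.8% and 37.41%. The sterol element TCACNCCAC was in 1 member window, that of Slc25a18, beside 1.24% of all windows, and the palindromic NRF1 motif in 0, beside 0.97%. A match of letters describes the window and says nothing about binding.

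Among the 15 measured carriers of nucleotides, phosphate and coenzymes, 5 were higher and 10 lower in KO, with a median of -0.02. Slc25a33, which imports pyrimidine nucleotides into the matrix, read 6.45, 5.93, 6.04 and 6.49 on KO 1 to 4, against 6.92, 7.25 and 6.90 on WT 1 to 3. Every WT array, WT 3 included, lay above every KO array. The means were 6.23 ± 0.29 (SD, n = 4) in KO and 7.03 ± 0.20 (SD, n = 3) in WT, a difference of -0.80 with a 95% interval of -1.20 to -0.39 that missed the threshold once adjusted over all genes (limma, adjusted p = 0.223). Against WT 3 alone the difference was -0.67. The signal was dim, above the negative control median on the 3 WT arrays and on 0 KO arrays, so the KO level, and with it the size of the difference, is not well determined.

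The ADP/ATP carriers, which exchange matrix ATP for cytosolic ADP, had unlike values. Slc25a4 (Ant1), the form typical of heart and muscle, read 11.57, 11.79, 11.87 and 11.46 on KO 1 to 4, against 12.28, 12.44 and 11.67 on WT 1 to 3. WT 3 lay among the KO arrays and the other WT arrays above them (limma, difference -0.46, adjusted p = 0.258). Slc25a5 (Ant2), the form of proliferating cells and shown here as its counterpart, read 12.21, 12.38, 12.38 and 12.22 in KO, against 12.27, 12.40 and 12.29 in WT. Its groups overlapped, and its range over the 7 arrays, 0.19 log2, was the smallest in the family after that of Slc25a17 (0.17), a peroxisomal carrier. The 95% interval of its difference ran from -0.25 to 0.20. Slc25a31 (Ant4), the testis form, had the smallest difference of this class (-0.01, and 0.05 after median centring) and read 4.83 to 5.07 in KO and 4.94 to 5.0 in WT, below the negative control median on every array. Whether the differences of Slc25a4 and Slc25a5 are unequal was not tested, and hybridisation of similar transcripts to shared probes was not analysed here.

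The ATP-Mg/phosphate carriers, which adjust the nucleotide content of the matrix, include neighbouring genes whose differences, neither past the threshold, had opposite signs. Slc25a41 and Slc25a23 lie next to each other on chromosome 17 with no protein-coding gene between them in the reference table. Slc25a41 read 8.02, 8.08, 8.04 and 8.09 on KO 1 to 4, against 7.80, 7.63 and 8.06 on WT 1 to 3 (difference 0.23; limma, adjusted p = 0.307). Slc25a23, chosen after its values were seen, read 9.13, 9.43, 9.58 and 8.72 in KO, against 10.14, 10.10 and 8.98 in WT (difference -0.52; adjusted p = 0.369). In both genes WT 3 lay within the KO range and WT 1 and WT 2 outside it, below the KO range for Slc25a41 and above it for Slc25a23. Against WT 3 alone both signs turned, to -0.0041 for Slc25a41 and 0.24 for Slc25a23. The contrast between these genes was not tested. In the other measured pairs of neighbours (Slc25a29 and Slc25a47, Slc25a54 and Slc25a24, Slc25a43 and Slc25a5) the differences shared a sign with all arrays. Of the other members of this class, Slc25a3, the phosphate carrier, differed by -0.19 and read 12.68 to 12.82 in KO and 12.80 to 13.10 in WT. Slc25a42, a coenzyme A importer named after its values were seen, read 6.71 to 7.21 in KO, and WT 3 (7.62) stood above that range while WT 1 (7.03) and WT 2 (7.04) lay within it. Slc25a51, the NAD importer, read 9.66 to 10.28 in KO, against 10.46, 10.62 and 9.70 in WT. The remaining members of the class differed by -0.13 to 0.15.

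Among the 8 carriers of carboxylates, sulfur compounds and acylcarnitine, 3 were higher and 5 lower in KO, and the class held the member with the lowest difference of the family. Slc25a10, which exchanges malate or succinate for phosphate, read 10.59, 10.68, 10.71 and 10.51 on KO 1 to 4, against 11.93, 11.63 and 10.96 on WT 1 to 3. Every WT array lay above every KO array, but WT 3 lay nearest, 0.33 above the KO mean, against 1.31 for WT 1. The difference was -0.88 with an interval of -1.37 to -0.39 (limma, adjusted p = 0.223). Slc25a1, the citrate carrier that supplies cytosolic acetyl-CoA for lipid synthesis, read 11.33, 11.49, 11.53 and 11.26 in KO, against 12.21, 12.15 and 11.50 in WT. WT 3 again lay among the KO arrays and the other WT arrays above them (difference -0.55; limma, adjusted p = 0.223). Slc25a26, which imports S-adenosylmethionine, had the opposite pattern, with 9.68, 9.54, 9.80 and 9.53 in KO, against 8.64, 8.60 and 9.83 in WT. WT 1 and WT 2 lay about 1 log2 below the KO arrays and WT 3 lay above all of them, so the sign of the difference turned, being 0.61 with all arrays and -0.19 against WT 3 alone.

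The other carboxylate and sulfur carriers varied less. Slc25a40, a relative of the glutathione importer Slc25a39, had the smallest difference (-0.01) and read 8.07, 7.97, 8.11 and 7.94 in KO, against 7.99, 7.95 and 8.16 in WT; its sign turned after median centring (0.05) and quantile normalization (0.04). Slc25a39 differed by -0.05 and Slc25a11, the oxoglutarate carrier of the malate-aspartate shuttle, by -0.04, each with overlapping groups. Slc25a20, the carnitine and acylcarnitine carrier of fatty acid oxidation, read 10.88 to 11.16 in KO, against 11.05, 10.39 and 11.20 in WT, with WT 2 alone low. Slc25a21, the oxodicarboxylate carrier, differed by 0.21 at a signal below the negative control median on every array.

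**Figure D2:**
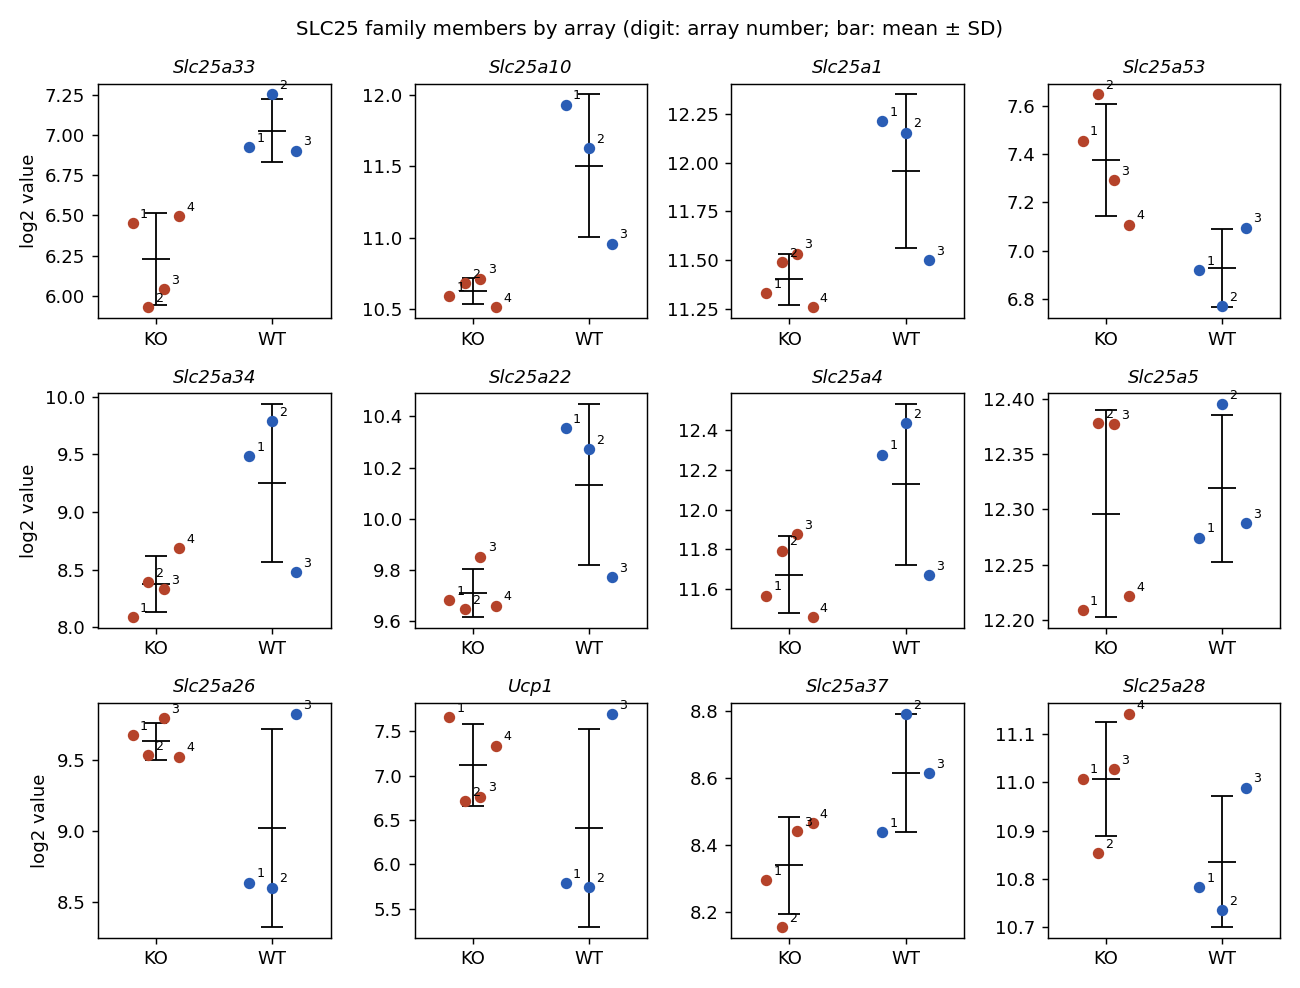
Log2 values of 12 members on each array, with KO at the left and WT at the right of each panel. Points are arrays, digits are array numbers, bars are the mean ± SD of 4 KO and 3 WT arrays, and each panel has its own vertical scale, which does not start at 0. WT 3 lies with the KO arrays in Slc25a1, Slc25a22, Slc25a34 and Slc25a4, and with the other WT arrays in Slc25a33.

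Of the 11 members grouped here as amino acid carriers, 7 were higher and 4 lower in KO, with a median of 0.05. Slc25a22, a glutamate carrier, read 9.68, 9.65, 9.85 and 9.66 on KO 1 to 4, against 10.35, 10.27 and 9.77 on WT 1 to 3, a difference of -0.42 (limma, adjusted p = 0.224). WT 3 lay within the KO range. Slc25a18, the related glutamate carrier, had the smallest difference of the class (0.04), with 7.90, 7.63, 7.74 and 7.96 in KO, against 7.59, 7.66 and 8.03 in WT. Slc25a13, an aspartate-glutamate carrier of the malate-aspartate shuttle, read 8.46, 7.70, 8.02 and 8.50 in KO, against 8.38, 8.70 and 8.48 in WT, and its paralog Slc25a12 differed by -0.20. For Slc25a13 the spread lay within the KO group, where KO 2 and KO 3 were low and KO 1 and KO 4 stood at the level of WT. Slc25a45 read 11.08, 11.38, 11.47 and 11.29 in KO, against 11.31, 10.54 and 11.14 in WT, with WT 2 alone apart. Slc25a38, a glycine carrier needed for heme synthesis, read 10.49 to 10.71 in KO and 10.33 to 10.72 in WT, and Slc25a44, the branched-chain amino acid carrier, 9.46 to 10.07 in KO and 9.85 to 10.10 in WT. The ornithine carriers Slc25a15 and Slc25a2 differed by 0.05 each, and Slc25a29, a carrier of basic amino acids, by 0.09. Slc25a48 differed by 0.11 at a signal below the negative control median on every array.

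Of the uncoupling proteins and their relatives, which return protons or anions across the inner membrane, 5 were measured and 1 exceeded the negative control median on all arrays. Ucp1, the heat-producing proton leak of brown fat, read 7.66, 6.71, 6.76 and 7.34 on KO 1 to 4, against 5.79, 5.74 and 7.70 on WT 1 to 3. WT 3 exceeded every KO array while the other WT arrays lay below them all, and the difference of 0.71 had an interval of -0.42 to 1.84 (limma, adjusted p = 0.413). On the same arrays the median of the negative control probe sets was 6.88, 6.49, 6.67 and 6.88 for KO 1 to 4, and 6.19, 6.26 and 6.71 for WT 1 to 3, so Ucp1 lay below it on WT 1 and WT 2; the part of background in this result was not tested. Slc25a27 (UCP4) had a difference of 0.00 (-0.02 after quantile normalization), with 7.02, 6.88, 6.36 and 7.13 in KO, against 7.31, 6.95 and 6.28 in WT. Slc25a14 (UCP5) read 6.31, 6.31, 6.22 and 6.14 in KO, against 6.18, 6.29 and 6.09 in WT, and Slc25a30 read 7.72, 7.56, 7.19 and 7.08 in KO, against 7.45, 7.46 and 7.52 in WT. In these 3 genes the groups overlapped. Ucp3, the muscle form, read 5.59 to 5.99 in KO and 5.75 to 5.79 in WT.

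The mitoferrins, which bring iron into the matrix for heme and iron-sulfur cluster synthesis, had values of opposite sign. Slc25a37 (mitoferrin 1), the erythroid form, read 8.30, 8.16, 8.44 and 8.46 on KO 1 to 4, against 8.44, 8.79 and 8.61 on WT 1 to 3. WT 1 lay within the KO range and the other WT arrays above it (difference -0.28, interval -0.57 to 0.02; limma, adjusted p = 0.267). The difference was -0.28 without WT 3 and -0.27 without WT 1 and WT 2. Of 5 measured erythroid markers 4 had a higher mean in KO, and their part in the result was not tested. Slc25a28 (mitoferrin 2), the form of other tissues, read 11.01, 10.85, 11.03 and 11.14 in KO, against 10.78, 10.74 and 10.99 in WT, a difference of 0.17 (interval -0.09 to 0.43; adjusted p = 0.392).

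The last 7 members sit in the outer membrane or have no settled substrate. Slc25a46, an outer membrane member that binds the fusion proteins MFN2 and OPA1, was named after its values were seen, because all KO arrays lay below all WT arrays. It read 9.87, 10.23, 10.25 and 10.22 on KO 1 to 4, against 10.27, 10.44 and 10.28 on WT 1 to 3. The nearest arrays were KO 3 and WT 1, and the difference of -0.19 had an interval of -0.47 to 0.10 (limma, adjusted p = 0.393). Slc25a34 read 8.09, 8.39, 8.33 and 8.68 in KO, against 9.48, 9.79 and 8.48 in WT, with WT 3 within the KO range (difference -0.87; adjusted p = 0.223). Slc25a53 was the 1 member in which all KO arrays lay above all WT arrays, with 7.45, 7.65, 7.29 and 7.11 in KO, against 6.92, 6.77 and 7.10 in WT (difference 0.45, interval 0.10 to 0.79; adjusted p = 0.223). KO 4 and WT 3 differed there by only about 0.01. The signal was dim, though above the negative control median on all 7 arrays. That median was 6.49 to 6.88 on the KO arrays, against 6.19, 6.26 and 6.71 on WT 1 to 3. The part of background in the Slc25a53 difference was not tested. Slc25a47, described mainly in liver, read 8.38, 7.98, 8.09 and 8.24 in KO, against 7.99, 7.85 and 7.93 in WT (difference 0.24). Slc25a35 had the smallest difference of the class (-0.06), with 9.74, 9.74, 9.71 and 9.58 in KO, against 9.83, 9.75 and 9.66 in WT; its sign turned after quantile normalization (0.01) and median centring (0.0025). Slc25a43, the neighbour of Slc25a5 on the X chromosome, differed by -0.09, and Slc25a54, the neighbour of the ATP-Mg/phosphate carrier Slc25a24 on chromosome 3, by 0.25, where Slc25a24 itself differed by 0.11.

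**Figure D3:**
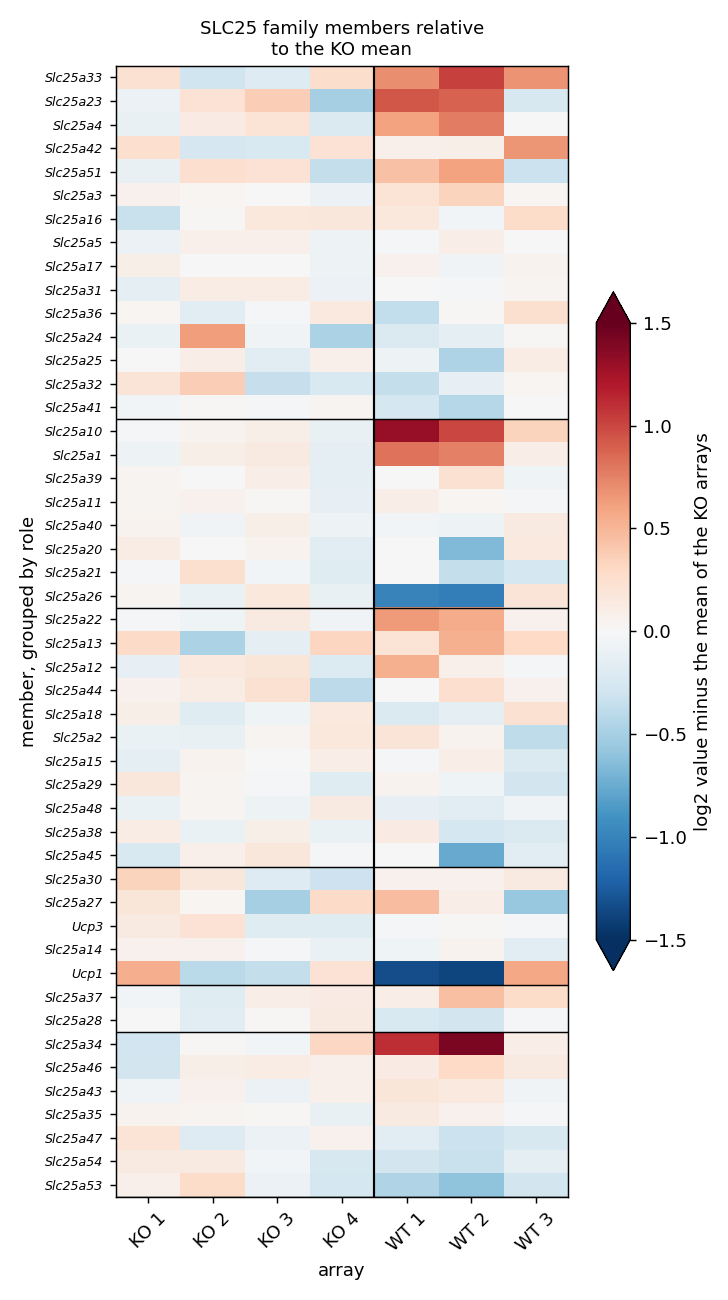
Log2 value of each of the 48 members on each array minus the mean of the 4 KO arrays for that member (colour, log2 units), with KO arrays at the left and WT arrays at the right and members grouped by role. WT 1 and WT 2 share their strong colours, red for Slc25a10, Slc25a34 and Slc25a23 and blue for Ucp1 and Slc25a26. WT 3 is paler in all of these, and of the opposite colour in Slc25a23 (blue), Slc25a26 (red) and Ucp1 (red).

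The WT arrays lay at unequal distances from the KO mean, with a median absolute distance over the members of 0.18 for WT 1, 0.26 for WT 2 and 0.14 for WT 3, beside 0.21, 0.28 and 0.13 over all genes. WT 1 and WT 2 both lay above the KO range in 12 members and both below it in 7, where 20.6% and 25.4% of all genes did so. WT 3 lay within the KO range in 26 members (54.2%), beside 57.7% of all genes, above it in 13 (18.1% of all genes) and below it in 9 (24.2%). Without WT 3, limma compared KO with WT 1 and WT 2 and called 11 members, 4 higher and 7 lower in KO, where 11.4% and 13.8% of all genes were called. The 7 lower were Slc25a34 (-1.26), Slc25a10 (-1.15), Slc25a23 (-0.91), Slc25a33 (-0.86), Slc25a1 (-0.78), Slc25a4 (-0.69) and Slc25a22 (-0.60), and the 4 higher were Ucp1 (1.35), Slc25a26 (1.02), Slc25a53 (0.53) and Slc25a41 (0.34). Together these were 22.9% of the family, beside 25.3% of all genes. Their adjusted p in limma ran from 0.000292 for Slc25a10 to 0.0479 for Slc25a41. WT 3, which those calls did not use, lay within the KO range in 6 of the 11, beyond it on the side of WT 1 and WT 2 in Slc25a10, Slc25a33 and Slc25a53, and beyond it on the other side in Slc25a26 and Ucp1. Over all 4931 genes called in that setting, WT 3 lay within the KO range in 55.2%, on the side of WT 1 and WT 2 in 27.1% and on the other side in 17.7%. With arrays weighted by their fit in limma, 9 of the same 11 were called, 3 higher and 6 lower, beside 10.3% and 12.6% of all genes (22.9% either way). WT 3 had the lowest weight, 0.24, against 1.95 for WT 1, so this setting is close to leaving WT 3 out and adds no independent result. WT 1 and WT 2 are the arrays highest in melanocyte and lowest in cDC1 markers, and WT 3 lay between them and the KO arrays in the melanocyte list. The part of melanocyte cells in the carrier values was not tested.

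**Figure D4:**
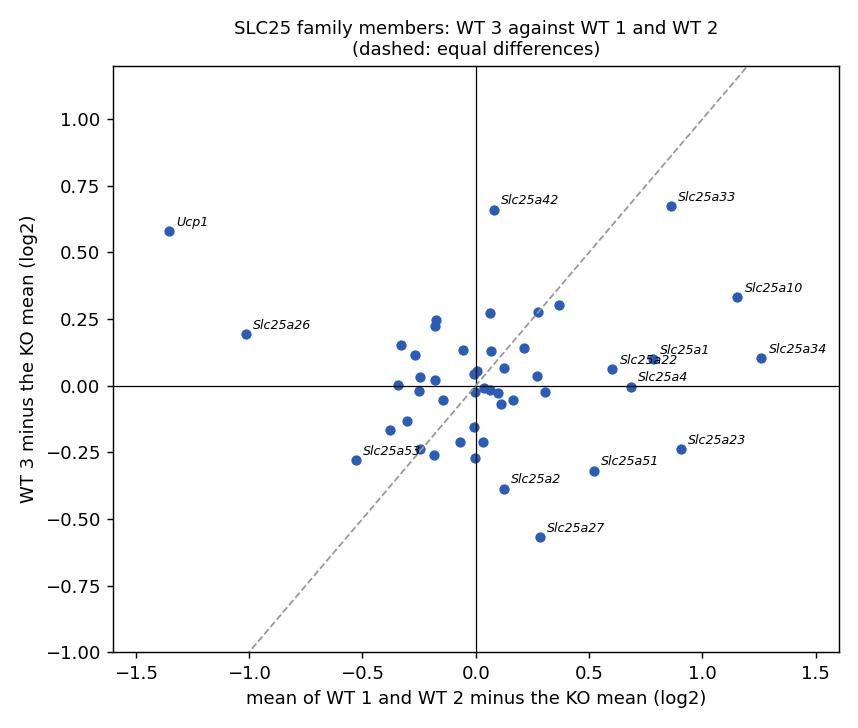
Each point is 1 of the 48 members, with the mean of WT 1 and WT 2 minus the KO mean on the horizontal axis and WT 3 minus the KO mean on the vertical axis, both in log2 units. The dashed line marks equal differences. Slc25a33 lies closest to that line among the members far from 0, while Slc25a34, Slc25a1, Slc25a22 and Slc25a4 lie near the horizontal axis.

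Set against WT 3 alone, without WT 1 and WT 2, 0 members were called by limma (0% of all genes), and at an unadjusted p under 0.05 1 was higher and 3 were lower in KO, beside 2.87% and 3.05% of all genes. The lower ones were Slc25a33 (-0.67), Slc25a42 (-0.66) and Slc25a10 (-0.33). The higher one was Slc25a2, an ornithine carrier (0.39), whose value on WT 3 (6.61) lay below the negative control median of that array (6.71). That setting takes the spread of WT from the KO arrays, since 1 WT array has none. In the choices of WT arrays that were run, Slc25a33 differed by -0.67 to -0.86 and Slc25a10 by -0.33 to -1.15. Their sign could not turn with the choice of WT arrays, because every KO array lay below every WT array. The same holds for Slc25a46 and, in the other direction, for Slc25a53. Slc25a33 and Slc25a10 were named for that lack of overlap, so the stable sign is no further evidence. Slc25a33 and Slc25a10 passed the adjusted threshold only without WT 3 or with array weights. WT 3 too exceeded every KO array in the mean of the melanocyte markers (9.21 against at most 8.07). No choice of WT arrays therefore removes that excess, and its part in these differences was not tested. For Slc25a33 the KO arrays lay below the negative control median, so the size of its difference is set against a group at background.

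Beyond the members, which were defined by symbol, 30 proteins tied to solute transport across mitochondrial membranes were listed, some of them regulators of channels. Mtch1 and Mtch2 fell in this list by their symbols. Of the 30 proteins 25 were measured, 11 higher and 14 lower in KO, with a median of -0.08. In limma 0 passed the adjusted threshold, and at an unadjusted p under 0.05 1 was higher (4% of the 25, beside 8.98% of all genes) and 5 were lower (20%, beside 10.6%). Mrs2, the magnesium channel of the inner membrane, read 9.39, 9.21, 9.29 and 9.26 on KO 1 to 4, against 9.73, 10.61 and 9.59 on WT 1 to 3, with all WT arrays above all KO arrays (difference -0.69; adjusted p = 0.223). Sfxn1, a serine importer, read 10.77, 11.07, 10.92 and 10.77 in KO, against 10.44, 10.30 and 10.75 in WT, with all KO arrays above all WT arrays, though by only about 0.01 between the nearest (difference 0.38; adjusted p = 0.224). The outer membrane pores Vdac1 and Vdac3 differed by -1.11 and -0.37, with Vdac1 at 9.01 to 9.41 in KO, against 10.41, 11.36 and 9.39 in WT, and Vdac3 at 11.21 to 11.55 in KO, against 11.83, 11.86 and 11.49 in WT. In both, WT 3 lay within the KO range. Without WT 3, 10 of the 25 were called (40%, beside 25.3% of all genes), 3 higher (12%, beside 11.4%) and 7 lower (28%, beside 13.8%).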

How the data were processed

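RNA was measured on 4 KO and 3 WT whole-transcript Affymetrix arrays labelled as sorted splenic cDC1, grouped and numbered by their titles. The markers of WT 1 and WT 2 put that label in doubt; both were kept, since groups follow the labels. The authors deposited log2 values for 28846 probe sets (3.68 to 14.28). RMA and, in version 1.1, Affymetrix Expression Console are named in the submitters' processing notes. The sources used here give no genome build. RMA compresses dim signals, which understates their differences, and precision is limited by the number of arrays. The platform annotation names 19572 transcript probe sets with 1 symbol each, several symbols for 0, and lists no gene for 2634. All 19572 matched the reference gene table (GRCm38.p6), and the probe set with the highest mean was kept, leaving 19505 genes. Of the value columns 0 were left unmapped. No level of 1 probe set was set against that of another, except against the median of 5222 negative control probe sets.

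Groups were compared by limma 3.58.1 (lmFit, then eBayes; R 4.3.3) without covariates, and p-values were adjusted by Benjamini-Hochberg over the 19505 genes, at 0.05. Opa1 was also tested by an exact permutation over 35 splits. The scripts were tested on simulated data. Values in every array are given for members without overlap at an unadjusted p under 0.05, and per role class for up to 3 members by p and the one of smallest difference. Up to 4 other transport proteins and 2 genes of a marker list were named by p or range; exceptions are marked. The members and lists were chosen with earlier results of these data known. Alternatives, fixed with those results known, were leaving out each array, or WT 1 and WT 2 together, a dim filter (mean under 8.09), quantile normalization, median centring, trended and robust variance, the replicate number as a block, array weights, every probe set, and a log2 difference of at least 1.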

Additional observations from a re-analysis of the deposited data

Results flagged for a closer look

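In Slc25a22 the array KO 3 read 9.85, where the other KO arrays read 9.65 to 9.68. In Slc25a46 the array KO 1 read 9.87, where the others read 10.22 to 10.25, and KO 1 thereby made most of the spread of that gene in KO. In the macrophage marker Fcgr1 the array KO 1 read 8.05, where the others read 8.26. Each was picked out because 1 of 4 KO arrays stood apart from a tight rest. Chance gives about 1 such group in 20, and 3 of 67 genes examined met the criterion.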

How the results depend on the processing

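Limits. No carrier passed correction in the chosen setting, the WT group holds arrays that differ in cell type markers, and for members below the negative control median in a group the size of a difference is poorly determined. Of all genes 4931 were called without WT 3 and 4458 with array weights, of the family 11 and 9, and of the other transport proteins 10 and 10; under every other alternative run the counts were 0. Leaving out each array thus gave 0 to 4931 genes, 0 to 11 members and 0 to 10 other transport proteins. The weights were 0.24 for WT 3, 0.56 for WT 2 and 1.15 to 2.04 for the other arrays, and the 9 members called with weights were all among the 11. The family median difference ran from -0.05 to 0.01 on leaving out 1 array, was -0.01 without WT 1 and WT 2, 0.05 after median centring and -0.09 with the dim filter, which kept 29 members. Opa1 stayed lower in KO and uncalled, between -1.5 and -0.996 on leaving out 1 array, and the dim filter left it out. Without WT 1 and WT 2 the sign turned for 18 of 48 members, among them Slc25a23 (0.24), Slc25a51 (0.32), Slc25a20 (-0.15), Slc25a25 (-0.11) and, of those named by rule, Slc25a18 (-0.22), Slc25a26 (-0.19), Slc25a35 (0.027), Slc25a4 (0.0034), Slc25a41 (-0.0041) and Ucp1 (-0.58). With the replicate number as a block it turned for 11, of those named by rule Slc25a18 (-0.006), Slc25a27 (-0.094), Slc25a30 (0.015), Slc25a31 (0.022) and Slc25a40 (0.0195), and 0 genes were called. The same numbers do not pair the arrays by the labels, and deviations of same-numbered arrays correlated at -0.04, 0.05 and -0.02 across genes; KO 4, with no WT partner, does not enter that difference. Of the members named by rule, median centring (7 turned in all) turned Slc25a31 (0.049), Slc25a35 (0.0025) and Slc25a40 (0.051), quantile normalization (6 in all) Slc25a27 (-0.019), Slc25a35 (0.011) and Slc25a40 (0.0398), and array weights (8 in all) Slc25a27 (-0.37), Slc25a31 (0.017) and Slc25a40 (0.044). Leaving out 1 array turned the sign of 0 to 11 members, with ranges, for those named by rule, of -0.041 to 0.178 for Slc25a18, -0.28 to 0.235 for Slc25a27, -0.2003 to 0.015 for Slc25a30, -0.047 to 0.035 for Slc25a31 and -0.047 to 0.056 for Slc25a40. The cause of these changes was not tested.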
